A study of Mus musculus with 18 samples.

Results

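Hddc3, Vamp8, Adi1 and AI467606 are 4 protein-coding genes of the 20979 genes with a row of their own in a table of testis RNA levels. They were chosen by their measured mean levels in these libraries, because AOS went with a lower mean RNA level in mice without the diet and STZ and with a higher mean level in mice given both. AOS is the abbreviation of the labels, which do not spell it out. The choice used the 4 groups control, AOS, HFD_STZ and HFD_STZ_AOS, so the members' values in those groups are given as a description, with no test. All 4 genes passed the minimum of 1 RPKM (reads per kilobase of transcript, scaled to the mapped reads of the library) in at least 3 libraries, as did 13874 genes in all. Of these, 3029 (21.8%) met the same direction rule on their group means, so the direction alone was common. The 4 members stood at ranks 1, 2, 4 and 5 of all tested genes when ordered by the size of the difference between both AOS effects relative to its error. That order rests on the same 4 groups as the choice, so nothing is read from the ranks. Over all tested genes, the test used here (limma) called 0 genes for this difference at an adjusted p under 0.05.

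The study measured RNA of whole testis from ICR mice aged 10 weeks, with 3 libraries in each of 6 groups. The control group had no treatment named. The AOS group received AOS at 10 mg/kg. The HFD_STZ group had a high fat diet and STZ (streptozotocin, a compound toxic to the insulin-producing cells of the pancreas). The HFD_STZ_AOS group had the diet, STZ and AOS at 10 mg/kg. The last pair of groups also had the diet and STZ. Of these, HFD_STZ_AOS_FMT had a fecal microbiota transfer labelled with AOS at 10 mg/kg, and HFD_STZ_control_FMT had a transfer labelled control. No transfer group lacked the diet and STZ, and the labels give neither the route nor the length of AOS dosing. The labels do not tie libraries to separate animals. Tests thus speak only of the spread between libraries, which may be technical.

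The 4 genes have no common pathway known from their names. Hddc3 encodes a small hydrolase of the HD domain family, known as MESH1, which removes a phosphate from NADPH in the cytosol and is the animal relative of bacterial enzymes that break down the starvation signal ppGpp. Vamp8, also called endobrevin, is a SNARE, one of the membrane proteins that zip together to fuse vesicles with their target. It acts at late endosomes and lysosomes, including the fusion of autophagosomes with lysosomes. Adi1 encodes acireductone dioxygenase, an enzyme of the methionine salvage pathway, which rebuilds methionine from the methylthioadenosine left over by polyamine synthesis. AI467606 is a gene known by its sequence tag, and no function is given for it here.

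In GRCm38 with GENCODE vM21, Hddc3 (ENSMUSG00000030532.6) lies on the plus strand of chromosome 7 from 80343104 to 80350547. Vamp8 (ENSMUSG00000050732.9) lies on the minus strand of chromosome 6 from 72385223 to 72390703. Adi1 (ENSMUSG00000020629.12) lies on the plus strand of chromosome 12 from 28675231 to 28682175. AI467606 (ENSMUSG00000045165.6) lies on the plus strand of chromosome 7 from 127091359 to 127093986. The stretches just upstream of Hddc3 and Vamp8 are shown because these 2 genes had both AOS differences without overlap between libraries. They come from RefSeq's promoter windows for GRCm38.p6, which matched 3 of the 4 members, and end before the first annotated start of the gene. The Hddc3 stretch is the plus strand of chr7:80342887-80343074 and holds 188 bases. The Vamp8 stretch is the minus strand of chr6:72390704-72390917 and holds 214 bases.
Hddc3: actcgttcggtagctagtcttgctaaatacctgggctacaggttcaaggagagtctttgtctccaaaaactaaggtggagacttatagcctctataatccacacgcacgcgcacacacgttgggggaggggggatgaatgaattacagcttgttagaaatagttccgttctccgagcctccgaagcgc
Vamp8: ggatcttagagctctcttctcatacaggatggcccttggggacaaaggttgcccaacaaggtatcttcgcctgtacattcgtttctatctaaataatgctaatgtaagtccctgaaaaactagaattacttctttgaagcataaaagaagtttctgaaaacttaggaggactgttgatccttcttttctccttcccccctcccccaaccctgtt
A search of the full windows, 250 bases before to 50 after the start, covered 7 motifs on both strands. One was the E-box, with the letters CACGTG. Another was the GC box, spelled GGGCGG. The third was the letters CCAAT, known for binding of the factor NFY. The TATA box was searched as TATAAA. The half-site for cAMP response was searched as TGACG, and the core of the antioxidant response element as TGACNNNGC. The last was the ETS factor core, GGAAGT. The half-site can overlap the antioxidant core. None occurred in either printed stretch, which is why these carry no capitals. The Hddc3 window held TGACNNNGC after the printed stretch, as did 12.4% of all 32851 windows. The AI467606 window is not printed, because it starts before the GENCODE gene but lies within the gene as RefSeq gives it. It held GGAAGT, as did 23.8% of windows. No motif was shared by the matched windows.

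Library 3 of HFD_STZ_AOS stood apart from the other libraries of its group. It held 156.69 RPKM of Crisp1, a gene of the epididymis (the duct attached to the testis), against 2.93 and 0.45 in its group. Libraries high in Crisp1 numbered 4 in all and also included control replicate 3, HFD_STZ_AOS_FMT replicate 3 and HFD_STZ_control_FMT replicate 2, at 116.64 to 164.71 RPKM. The other libraries lay between 0.05 and 23.11 RPKM. The summed level of 15 epididymal markers was 218.5 RPKM in HFD_STZ_AOS replicate 3, against 17.49 and 14.05 RPKM in its group. The sum of 10 adipose markers was 165.9 RPKM, against 24.5 and 24.17. The HFD_STZ_AOS means of Hddc3, Vamp8 and Adi1 are given with and without this library. Other values of that group include it unless stated. Pearson's r of log2(RPKM + 1) was 0.988 to 0.995 between libraries of a group and 0.984 to 0.994 between groups. The approximate depth, read from the spacing of low RPKM values, was 13200000 to 14400000 reads a library.

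Hddc3 had the lowest levels under AOS alone and the highest under AOS with the diet and STZ. Its control libraries were at 9.57, 8.96 and 8.55 RPKM and its AOS libraries at 6.76, 6.89 and 7.15 RPKM. Every AOS library was below every control library, and the difference of the AOS mean from the control mean was -23.2% (6.93 ± 0.199 against 9.03 ± 0.513 RPKM, SD, n = 3 each). In HFD_STZ the libraries were at 9.73, 10.13 and 9.01 RPKM, and in HFD_STZ_AOS at 11.26, 10.6 and 14.41 RPKM. Every HFD_STZ_AOS library was above every HFD_STZ library, but replicate 3 was far above the other two. The HFD_STZ_AOS mean of 12.1 ± 2.04 RPKM was 25.6% above the HFD_STZ mean of 9.62 ± 0.568 RPKM (SD, n = 3 each). Without replicate 3 the HFD_STZ_AOS mean was 10.9 RPKM.

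Vamp8 had the same order of groups at its ends. Its HFD_STZ_AOS libraries had a coefficient of variation of 1.42%, below the 11.3% estimated for counting reads alone. Its control libraries were at 7.95, 6.32 and 6.5 RPKM and its AOS libraries at 5.47, 6.2 and 5.11 RPKM. The AOS libraries were all below the control libraries, with a gap of only 0.12 RPKM between 6.2 and 6.32, and the means were 5.59 ± 0.555 and 6.92 ± 0.894 RPKM (SD, n = 3 each). In HFD_STZ the libraries were at 6.49, 7.12 and 7.87 RPKM, and in HFD_STZ_AOS at 9.26, 9.44 and 9.52 RPKM. All HFD_STZ_AOS libraries were above every other library of the series. The HFD_STZ_AOS mean of 9.41 ± 0.133 RPKM was 31.4% above the HFD_STZ mean of 7.16 ± 0.691 RPKM (SD, n = 3 each), and without replicate 3 it was 9.35 RPKM.

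Adi1 carried its difference mainly in the mice without the diet and STZ. Its control libraries were at 5.58, 4.49 and 6.02 RPKM and its AOS libraries at 3.24, 3.1 and 3.05 RPKM. The AOS libraries were the lowest of the series and close to each other, and the difference of their mean from the control mean was -41.6% (3.13 ± 0.0985 against 5.36 ± 0.788 RPKM, SD, n = 3 each). In HFD_STZ the libraries were at 4.25, 4.73 and 3.98 RPKM, and in HFD_STZ_AOS at 4.5, 4.31 and 6.47 RPKM. These groups overlapped, and replicate 3 alone lay above all HFD_STZ libraries. The HFD_STZ_AOS mean was 5.09 ± 1.2 RPKM with replicate 3 and 4.41 RPKM without it, beside 4.32 ± 0.380 RPKM in HFD_STZ (SD, n = 3). The higher mean with AOS under the diet and STZ therefore rested on 1 library for Adi1.

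AI467606 was the reverse case, with its difference mainly under the diet and STZ. Its control libraries were at 3.88, 4.18 and 4.46 RPKM and its AOS libraries at 4.14, 3.34 and 3.31 RPKM. These groups overlapped through AOS replicate 1, and the means were 4.17 ± 0.290 and 3.60 ± 0.471 RPKM (SD, n = 3 each). In HFD_STZ the libraries were at 2.87, 3.32 and 3.67 RPKM, and in HFD_STZ_AOS at 5, 4.98 and 4.37 RPKM. All HFD_STZ_AOS libraries were above all HFD_STZ libraries, and here replicate 3 was the lowest of its group. The HFD_STZ_AOS mean of 4.78 ± 0.358 RPKM was 45.5% above the HFD_STZ mean of 3.29 ± 0.401 RPKM (SD, n = 3 each).

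**Figure D1:**
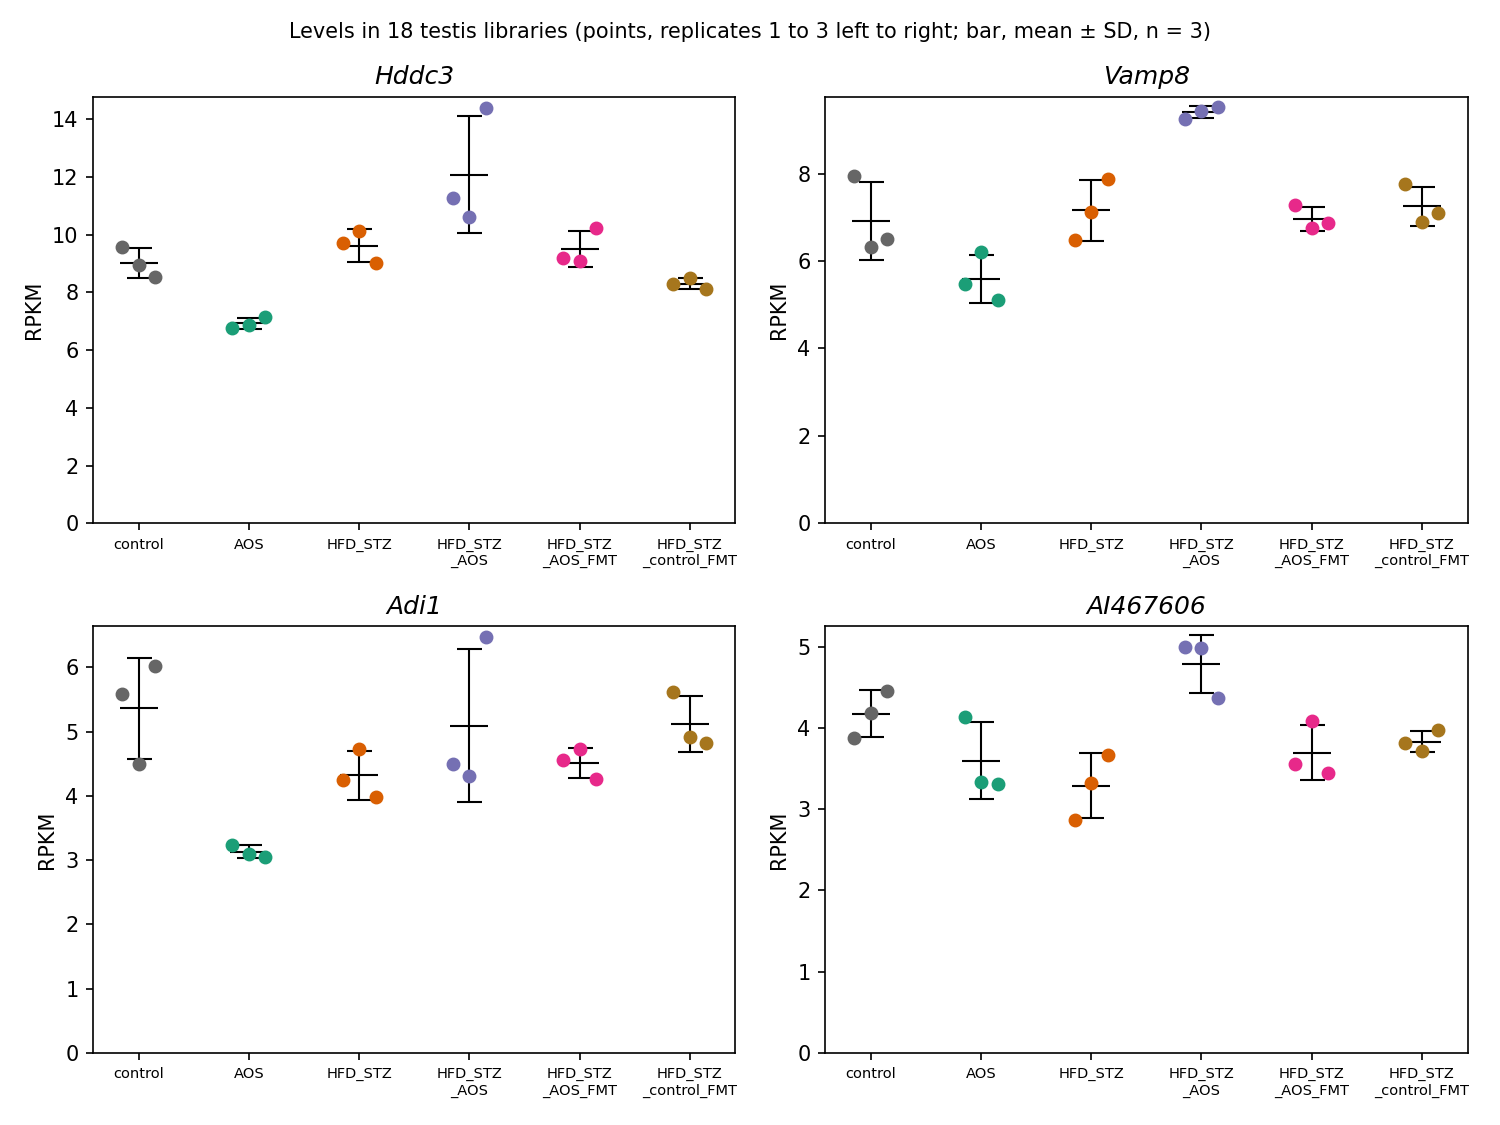
RPKM of each gene (vertical axes) in each of the 3 libraries (points) of the 6 groups (horizontal axis), with the group mean and SD. Vamp8 in HFD_STZ_AOS sits between 9.26 and 9.52 RPKM, above all other libraries, and Adi1 in AOS between 3.05 and 3.24 RPKM, below all other libraries.

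Counted over the members, every AOS library lay below every control library for 3 of 4 genes (Hddc3, Vamp8 and Adi1), as for 14.8% of all tested genes. Every HFD_STZ_AOS library lay above every HFD_STZ library for 3 of 4 genes (Hddc3, Vamp8 and AI467606), as for 7.37% of tested genes. Both held for Hddc3 and Vamp8, and for 35 (0.252%) of tested genes. The rule used both contrasts, so nothing is read from these counts. The opposite directions thus held library by library for Hddc3 and Vamp8, and on means alone for Adi1 and AI467606.

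On the log2(RPKM + 1) scale, which understates the change of low genes, the AOS minus control difference was -0.34 ± 0.08 (SE) for Hddc3 and -0.26 ± 0.08 for Vamp8. It was -0.62 ± 0.12 for Adi1 and -0.17 ± 0.09 for AI467606. Without control replicate 1, the highest control library of Vamp8, the difference of Vamp8 was -0.17. The HFD_STZ_AOS minus HFD_STZ difference was 0.29 ± 0.08 for Hddc3, 0.35 ± 0.08 for Vamp8, 0.18 ± 0.12 for Adi1 and 0.43 ± 0.09 for AI467606. It was 0.17 for Hddc3 and 0.03 for Adi1 without HFD_STZ_AOS replicate 3, and 0.27 for Adi1 without replicate 2. The second difference minus the first was 0.63 ± 0.12 for Hddc3, 0.62 ± 0.12 for Vamp8, 0.80 ± 0.16 for Adi1 and 0.61 ± 0.12 for AI467606. Across all genes, limma called none for this interaction at an adjusted p under 0.05 (0%), and 640 (4.61%) had an unadjusted p under 0.05. Rpl10a, a ribosomal protein gene, stood at rank 3 between the members with 0.38 ± 0.08 and also met the direction rule. The next genes outside the members that met it were Zfp81 at rank 12 with 0.79 ± 0.19, Txn1 at rank 13 with 0.58 ± 0.14 and Myl6 at rank 14 with 0.28 ± 0.07.

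**Figure D2:**
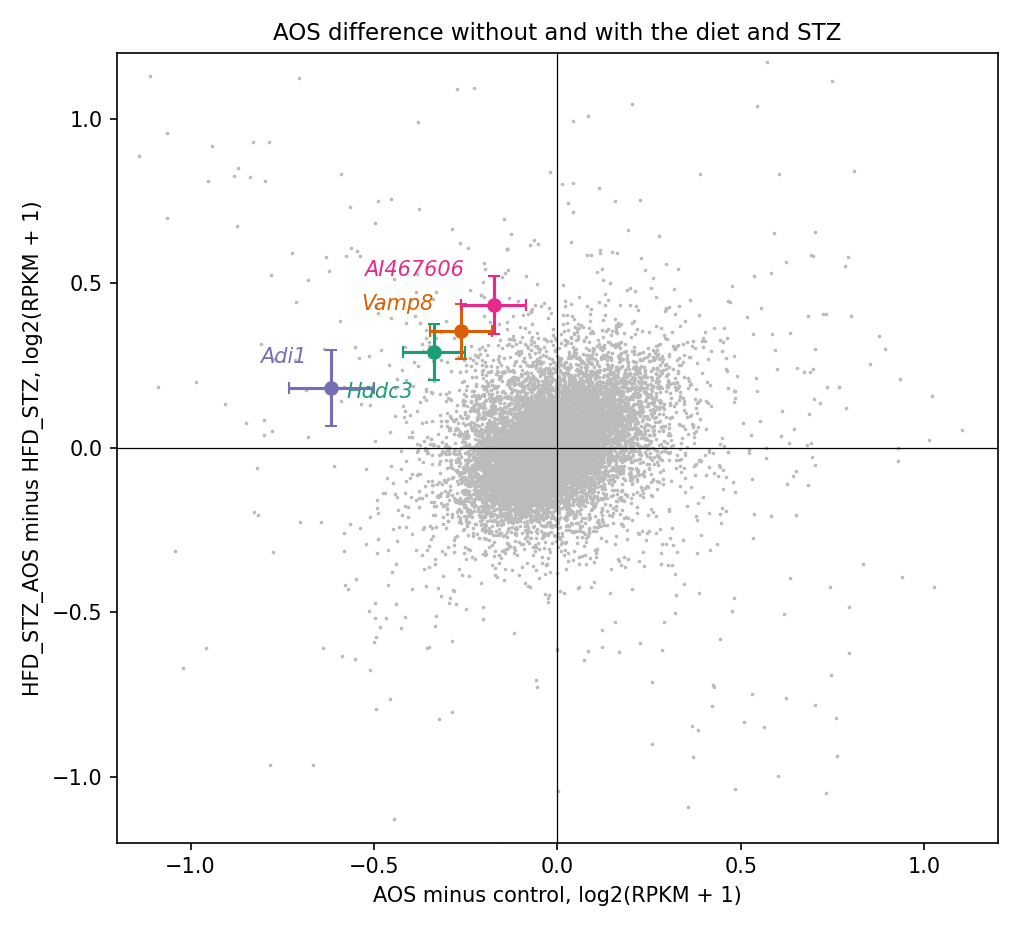
AOS minus control (horizontal axis) against HFD_STZ_AOS minus HFD_STZ (vertical axis), both as differences of log2(RPKM + 1), for all tested genes (grey points, 51 outside the axes) and the 4 genes (colours, with SE bars). The 4 genes lie in the upper left part, where the rule placed them, from -0.62 for Adi1 to -0.17 for AI467606 on the horizontal axis.

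The level without AOS also differed between members, again as a description. HFD_STZ minus control was 0.08 for Hddc3 and 0.04 for Vamp8, with overlapping libraries. It was -0.25 ± 0.12 for Adi1, with overlap, and -0.27 ± 0.09 for AI467606, where all HFD_STZ libraries were below all control libraries, as for 4.53% of tested genes. Ordered from high to low, Hddc3 ran HFD_STZ_AOS, HFD_STZ, HFD_STZ_AOS_FMT, control, HFD_STZ_control_FMT and AOS, and its libraries overlapped between neighbours from HFD_STZ to control only. Vamp8 ran HFD_STZ_AOS, HFD_STZ_control_FMT, HFD_STZ, HFD_STZ_AOS_FMT, control and AOS, with only the first and the last group apart from their neighbours. Adi1 ran control, HFD_STZ_control_FMT, HFD_STZ_AOS, HFD_STZ_AOS_FMT, HFD_STZ and AOS, with only AOS apart. Without HFD_STZ_AOS replicate 3, the Adi1 mean of that group was 4.41 RPKM, below the 4.51 RPKM of HFD_STZ_AOS_FMT. AI467606 ran HFD_STZ_AOS, control, HFD_STZ_control_FMT, HFD_STZ_AOS_FMT, AOS and HFD_STZ, and every pair of neighbours overlapped. Between both AOS groups, HFD_STZ_AOS was above AOS without overlap for all 4 genes, as for 13.5% of tested genes, by 74.4% for Hddc3, 68.2% for Vamp8, 62.7% for Adi1 and 33.0% for AI467606. These percentages include HFD_STZ_AOS replicate 3. Without it, the HFD_STZ_AOS mean was 10.9 RPKM for Hddc3 and 4.41 RPKM for Adi1, beside 6.93 and 3.13 RPKM in AOS.

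The choice of members did not use the transfer groups, and their comparison was the one test open to the members. It asked whether a transfer labelled with AOS differed from a transfer labelled control under the diet and STZ. Its error was pooled over all 6 groups, so it also drew on the spread within the 4 groups used for the choice. Hddc3 was at 9.19, 9.09 and 10.22 RPKM in HFD_STZ_AOS_FMT and at 8.29, 8.5 and 8.13 RPKM in HFD_STZ_control_FMT. All libraries of the first group were above all of the second, as for 5.15% of tested genes. The log2 difference was 0.17 ± 0.08 (95% interval -0.0077 to 0.353), with an unadjusted limma p of 0.0594 and an adjusted p of 0.999, so the difference did not pass the test. The pooled error of Hddc3 includes HFD_STZ_AOS, where its libraries varied most (coefficient of variation 16.8%). Fitted on only the transfer groups, the SE was 0.07 and the limma adjusted p 0.999. The unadjusted interval thus depends in part on groups outside the comparison.

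Vamp8 was at 7.28, 6.75 and 6.88 RPKM with the AOS transfer and at 7.76, 6.9 and 7.1 RPKM with the control transfer. The groups overlapped, and the log2 difference was -0.05 ± 0.08 (95% interval -0.227 to 0.128). Adi1 was at 4.55, 4.73 and 4.26 RPKM with the AOS transfer and at 5.61, 4.92 and 4.82 RPKM with the control transfer. All AOS transfer libraries of Adi1 were below all control transfer libraries, as for 3.27% of tested genes, and the log2 difference was -0.15 ± 0.12 (95% interval -0.393 to 0.0964), or -0.09 without HFD_STZ_control_FMT replicate 1. AI467606 was at 3.56, 4.08 and 3.45 RPKM with the AOS transfer and at 3.81, 3.71 and 3.97 RPKM with the control transfer. These groups overlapped, with a log2 difference of -0.04 ± 0.09 (95% interval -0.230 to 0.145). Of the 4 members, 0 passed limma's test at an adjusted p under 0.05, as against 3 (0.0216%) of all tested genes, and each member's adjusted p was 0.999. At an unadjusted p under 0.05 the counts were 0 members and 635 genes (4.58%).

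**Figure D3:**
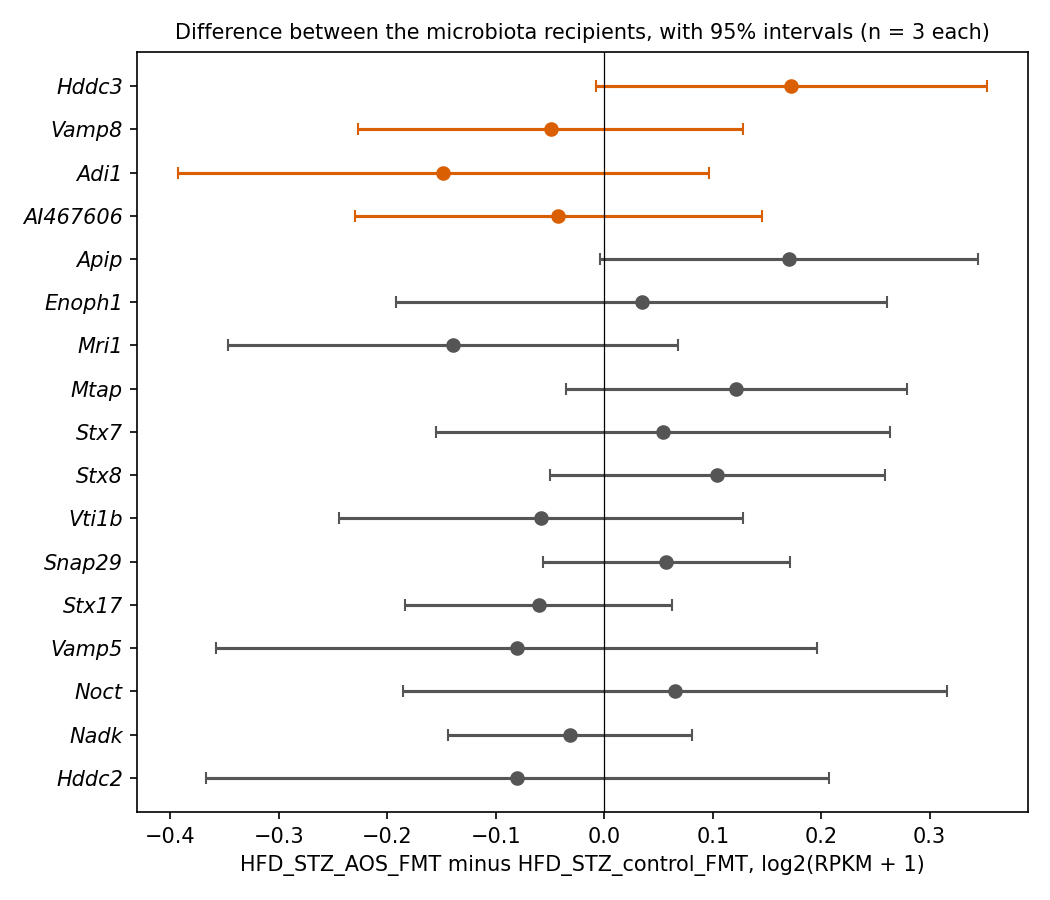
Difference of HFD_STZ_AOS_FMT minus HFD_STZ_control_FMT in log2(RPKM + 1) for the 4 genes (orange) and their 13 partner genes (grey), with the 95% interval. The intervals, which use the error pooled over all 6 groups, include 0 for the 4 genes. That of Hddc3 reaches furthest above it, from -0.0077 to 0.353.

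Against HFD_STZ, which the rule used, the transfer groups are described only. HFD_STZ_AOS_FMT minus HFD_STZ was -0.02 for Hddc3, -0.03 for Vamp8, 0.05 for Adi1 and 0.13 for AI467606, with overlapping libraries each time. Leaving out 1 library moved the values of AI467606 to 0.062 (without HFD_STZ replicate 1) and 0.076 (without HFD_STZ_AOS_FMT replicate 2), and those of Adi1 to 0.0066 to 0.108, at these ends without HFD_STZ replicates 3 and 2. HFD_STZ_control_FMT minus HFD_STZ was -0.19 for Hddc3, whose libraries lay below those of HFD_STZ without overlap (16.0% of tested genes). It was 0.20 for Adi1 and 0.18 for AI467606, whose libraries lay above without overlap (8.00% of tested genes), and 0.02 for Vamp8. Without HFD_STZ replicate 1 that of AI467606 was 0.10. HFD_STZ_AOS libraries lay above HFD_STZ_AOS_FMT libraries without overlap for Hddc3, Vamp8 and AI467606 (7.05% of tested genes), by 27.3%, 35.0% and 29.4%. Without HFD_STZ_AOS replicate 3, the Hddc3 mean of that group was 10.9 RPKM, beside 9.5 RPKM in HFD_STZ_AOS_FMT. For Adi1 these groups overlapped.

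None of the 4 enzymes that act beside Adi1 in methionine salvage passed limma's test between AOS and control or between HFD_STZ_AOS and HFD_STZ. Apip, the dehydratase of the pathway, had 21.6 ± 1.19 RPKM in control and 22.2 ± 1.35 RPKM in AOS (SD, n = 3 each), a log2 difference of 0.04 ± 0.08. Enoph1, which makes the acireductone that Adi1 uses, differed by -0.06 ± 0.11 between AOS and control and by 0.25 ± 0.11 between HFD_STZ_AOS and HFD_STZ (limma adjusted p 0.841 and 0.342). Mri1, the isomerase, differed by 0.14 ± 0.10 and 0.07 ± 0.10, at group means of only 0.80 to 1.24 RPKM, near the minimum of 1 RPKM. Mtap, the phosphorylase that opens the pathway, differed by 0.03 ± 0.07 and -0.11 ± 0.07. Of 15 tested genes of the 19 listed for methionine salvage and S-adenosylmethionine, 10 were lower in AOS than in control and 0 passed the test. Their median difference was -0.06, beside -0.03 over all tested genes. Between HFD_STZ_AOS and HFD_STZ, 9 were lower (median -0.02, all genes -0.01). The smallest p of the list was that of Apip between HFD_STZ_AOS_FMT and HFD_STZ, with 24.6 ± 2.40 and 20.2 ± 1.29 RPKM (SD, n = 3 each), a log2 difference of 0.27 ± 0.08 without overlap that did not pass (limma adjusted p 0.216). Bhmt, a methyltransferase that makes methionine, had the second smallest p of the list, with 36.6 ± 7.14 RPKM in HFD_STZ_AOS and 51.4 ± 6.76 RPKM in HFD_STZ (SD, n = 3 each, limma adjusted p 0.273). Of 13 tested polyamine genes, 8 were lower in AOS than in control (median -0.06, all genes -0.03). Between HFD_STZ_AOS and HFD_STZ, 9 polyamine genes were higher (median 0.08, all genes -0.01), and 0 passed in either comparison. Oaz3, the antizyme of spermatids, and Azin2, an antizyme inhibitor, had the smallest p-values of that list. Oaz3 differed by 0.16 ± 0.05 between HFD_STZ_AOS_FMT and HFD_STZ, and Azin2 by 0.16 ± 0.06 between AOS and control (limma adjusted p 0.219 and 0.256).

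None of the SNAREs that pair with Vamp8 passed the test in these comparisons. Stx7, Stx8 and Vti1b form its late endosome complex, and Stx17 and Snap29 its complex at autophagosomes. Vti1b had 25.6 ± 1.04 RPKM in AOS and 20.9 ± 0.733 RPKM in control (SD, n = 3 each), a log2 difference of 0.28 ± 0.09 that did not pass (limma adjusted p 0.216). Its control mean was the lowest of all groups, and the others were at 23.5 to 26.6 RPKM. For Vti1b, HFD_STZ minus control was 0.27 ± 0.09 (limma adjusted p 0.385) and HFD_STZ_AOS minus HFD_STZ was 0.06 ± 0.09. Stx7 differed by -0.21 ± 0.10 and Stx17 by -0.16 ± 0.06 between AOS and control, and by -0.02 ± 0.10 and -0.01 ± 0.06 between HFD_STZ_AOS and HFD_STZ. Snap29 differed by -0.11 ± 0.05 and -0.13 ± 0.05 in the same comparisons, and Stx8 by 0.05 ± 0.07 in each. Of 25 tested SNARE fusion genes, 19 were lower in AOS than in control (median -0.05, all genes -0.03) and 13 were higher in HFD_STZ_AOS than in HFD_STZ (median 0.01, all genes -0.01). In each, 0 passed the test. Napa, which helps to take spent SNARE complexes apart, had the smallest p of the list, with a log2 difference of 0.20 ± 0.06 between HFD_STZ_control_FMT and HFD_STZ (limma adjusted p 0.147).

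Genes near Hddc3 in function gave no call either. Noct, another NADPH phosphatase, differed by -0.14 ± 0.12 between AOS and control and by -0.0042 ± 0.12 between HFD_STZ_AOS and HFD_STZ. Nadk, the kinase that makes NADP, differed by -0.09 ± 0.05 and -0.10 ± 0.05. Hddc2, an HD domain relative, differed by -0.08 ± 0.14 and 0.07 ± 0.14. Of 7 tested HD domain genes, 6 were lower in AOS than in control (median -0.04) and 5 lower in HFD_STZ_AOS than in HFD_STZ (median -0.02). Of 16 tested genes of NADPH supply, 12 were lower in AOS than in control (median -0.06) and 10 lower in HFD_STZ_AOS than in HFD_STZ (median -0.01). The medians of all tested genes were -0.03 and -0.01, and 0 genes passed the test in both lists. Pde8a, a cyclic AMP phosphodiesterase with 90.7 ± 1.92 RPKM in HFD_STZ_AOS and 102.1 ± 3.78 RPKM in HFD_STZ, had the smallest p of the HD domain list (SD, n = 3 each, limma adjusted p 0.170), and Samhd1, a nucleotide hydrolase, differed by 0.24 ± 0.11 between HFD_STZ and control. Me1 and Pgd, which make NADPH, differed by -0.22 ± 0.06 and -0.21 ± 0.06 between HFD_STZ_control_FMT and HFD_STZ (limma adjusted p 0.125 and 0.133). Across these 5 lists and all 7 comparisons, limma called 0 genes at an adjusted p under 0.05. Of all tested genes limma called 0% for AOS against control, HFD_STZ_AOS against HFD_STZ and HFD_STZ against control, with 13.9%, 12.5% and 8.30% at an unadjusted p under 0.05. It called 0.0144% for HFD_STZ_AOS_FMT against HFD_STZ and 0.00721% for HFD_STZ_control_FMT against HFD_STZ, with 14.5% and 16.2% at an unadjusted p under 0.05.

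Genome neighbours gave their own values. Hddc3 overlaps Man2a2, a Golgi mannosidase gene on the other strand, and the use of strand in counting is not given in the sources used here. Reads from their overlap cannot be told apart. Man2a2 was at 20.9 RPKM in control, 20.0 RPKM in AOS, 20.9 RPKM in HFD_STZ and 20.6 RPKM in HFD_STZ_AOS. It was at 19.4 RPKM in HFD_STZ_AOS_FMT and 19.8 RPKM in HFD_STZ_control_FMT. The part of Man2a2 reads in the Hddc3 values was not tested. Vamp5, another SNARE gene 4755 bases from Vamp8, had 3.24 ± 0.268 RPKM in control and 2.59 ± 0.602 RPKM in AOS, and 3.21 ± 0.175 RPKM in HFD_STZ and 3.51 ± 0.602 RPKM in HFD_STZ_AOS (SD, n = 3 each). Its differences of -0.25 ± 0.13 and 0.09 ± 0.13 had the signs of Vamp8 and did not pass (limma adjusted p 0.410 and 0.810). Rnaseh1 beside Adi1 was at 3.84 RPKM in control and 4.46 RPKM in AOS, opposite in sign to Adi1. It was at 3.90 RPKM in HFD_STZ and 4.25 RPKM in HFD_STZ_AOS, with the sign of Adi1. Between AOS and control and between HFD_STZ_AOS and HFD_STZ, Ggcx beside Vamp8 differed by -0.25 and -0.06 (log2). Trappc12 beside Adi1 differed by -0.03 and -0.17, and Unc45a beside Hddc3 by -0.0058 and -0.12. The neighbours of AI467606, Zg16 and Qprt, were below the minimum level.

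The genes most like each member over the 18 libraries were ranked by Pearson's r of log2(RPKM + 1), as a description of libraries that share depth and composition. For Hddc3 they were Apeh (a peptidase, r = 0.911, Spearman's rho = 0.883), Cln3 (a lysosomal membrane protein, r = 0.887, rho = 0.844) and Rhog (a small GTPase, r = 0.873, rho = 0.809). Without the 2 libraries farthest from the median of Hddc3, r was 0.816, 0.819 and 0.802. For Vamp8 they were H2al1g (r = 0.840, rho = 0.835), Cln3 again (r = 0.828, rho = 0.824) and Opn3 (an opsin, r = 0.827, rho = 0.808). Without the 2 libraries farthest from the median of Vamp8, r was 0.799, 0.761 and 0.792. H2al1g belongs to a family of near-identical histone genes, so its level is uncertain. Cln3 was at 6.88 RPKM in control, 6.23 RPKM in AOS, 7.79 RPKM in HFD_STZ and 9.15 RPKM in HFD_STZ_AOS. For Adi1 they were Tmed10 (a cargo receptor, r = 0.866, rho = 0.833), Slc35e1 (r = 0.790, rho = 0.656) and Iah1 (r = 0.768, rho = 0.677). Without the 2 libraries farthest from the median of Adi1, r was 0.789, 0.660 and 0.701. For AI467606 they were Igf2bp1 (an RNA-binding protein, r = 0.822, rho = 0.797), Tent5b (r = 0.727, rho = 0.748) and Lrrc46 (r = 0.703, rho = 0.608). Without the 2 libraries farthest from the median of the member, r was 0.719, 0.626 and 0.558 for AI467606.

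**Figure D4:**
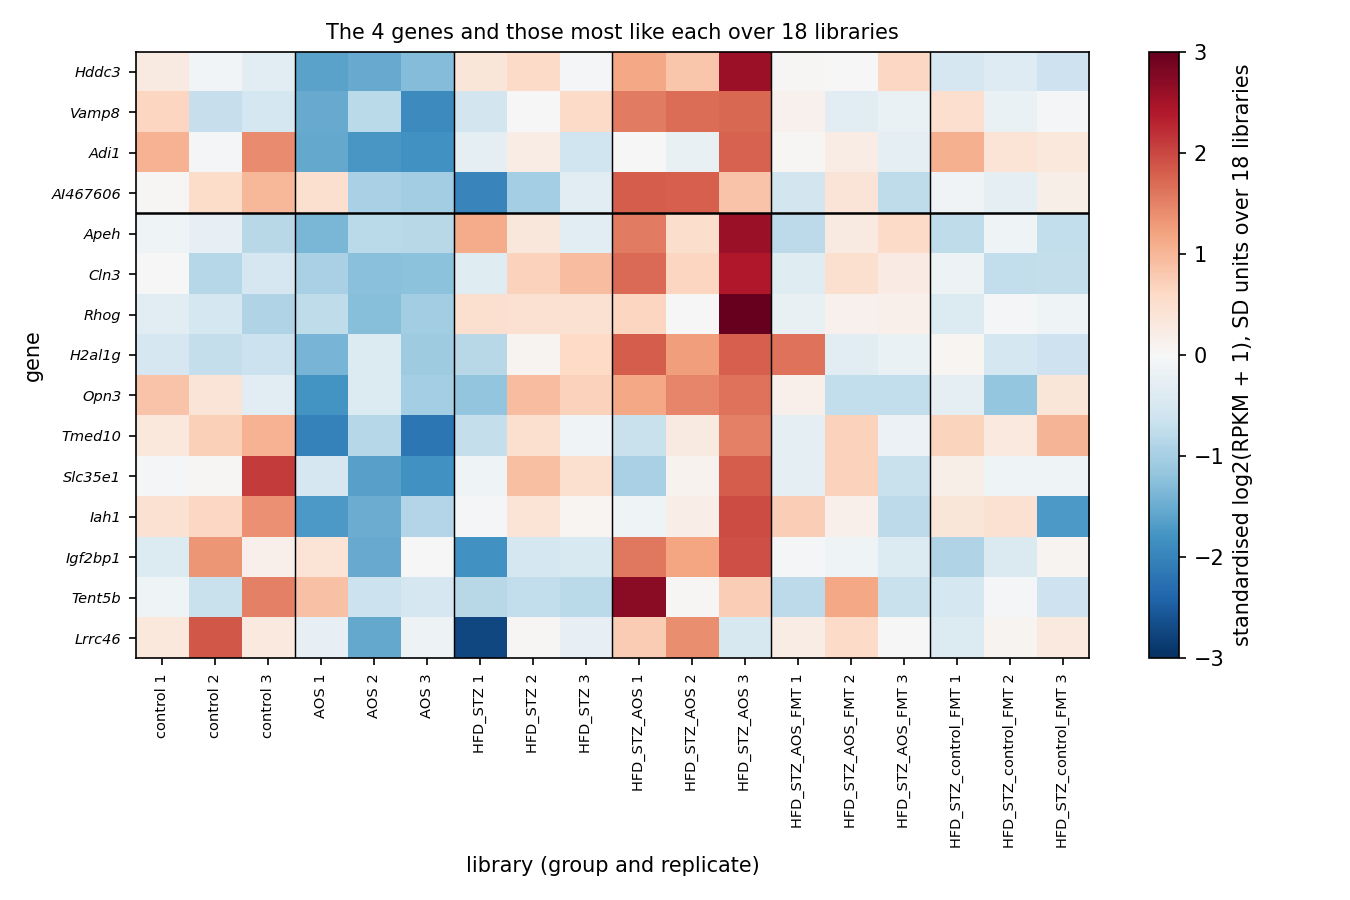
Level of each member and of its 3 most similar genes (rows) in the 18 libraries (columns), as log2(RPKM + 1) standardised over the libraries to SD units (colour scale). HFD_STZ_AOS libraries are high for Hddc3 and Vamp8, and AOS libraries low for Adi1 and Tmed10. For Apeh and Cln3, HFD_STZ_AOS replicates 1 and 3 are the highest. Replicate 2 of that group (0.52 and 0.64) is below the highest HFD_STZ library of each.

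All 4 genes had middle levels. Hddc3 was above 51.9% of tested genes, Vamp8 above 45.9%, Adi1 above 35.1% and AI467606 above 31.3%. From the estimated depth and the RefSeq transcript length, a library held a median of about 186 reads of Hddc3, 78 of Vamp8, 102 of Adi1 and 101 of AI467606. Counting such numbers has by itself a coefficient of variation of 7.34% for Hddc3, 11.3% for Vamp8, 9.92% for Adi1 and 9.95% for AI467606. The coefficient of variation measured within groups was 8.24% for Hddc3, 8.31% for Vamp8, 12.6% for Adi1 and 9.30% for AI467606. It was close in size to the counting error of each gene, and below it for Vamp8 and AI467606. The counting error rests on the approximate depth.

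Several library properties moved with the groups. In whole testis, fewer cells of a type and less RNA per cell cannot be told apart. Gene levels (log2) were first set relative to each gene's mean over the 18 libraries. The median over 985 genes with transcripts up to 1000 bases was then taken. From it was subtracted the median over 4546 genes with transcripts of 4000 bases or more. The result, as a group median, was -0.12 in control and 0.04 in AOS, and -0.11 in HFD_STZ and 0.07 in HFD_STZ_AOS. With the length trend removed from each library, the HFD_STZ_AOS minus HFD_STZ difference was 0.24 for Hddc3, 0.34 for Vamp8, 0.14 for Adi1 and 0.41 for AI467606, and AOS minus control was -0.36, -0.26, -0.64 and -0.18. Without the 4 libraries high in Crisp1, the second minus the first difference was 0.54 for Hddc3, 0.65 for Vamp8, 0.57 for Adi1 and 0.62 for AI467606. The leukocyte genes Ptprc and Coro1a, markers of blood-derived cells in which Vamp8 is abundant, were at 0.15 to 0.44 RPKM and 0.33 to 1.29 RPKM over all libraries. The sum of 24 leukocyte markers, leaving out Cd52, which the epididymis also makes, was 56.3 to 60.9 RPKM in control, 48.6 to 62.2 in AOS, 57.6 to 66.1 in HFD_STZ and 50.6 to 69.2 in HFD_STZ_AOS, with its highest HFD_STZ_AOS value in replicate 3. Of 11 Leydig cell genes, all were lower in AOS than in control (median -0.21) and 9 lower in HFD_STZ_AOS than in HFD_STZ (median -0.12), with 0 past limma's test and 3 and 1 at an unadjusted p under 0.05. The summed level of 15 elongating spermatid genes was 57200 to 63890 RPKM in control and 69150 to 70860 RPKM in AOS, and 58360 to 64420 RPKM in HFD_STZ and 65060 to 73400 RPKM in HFD_STZ_AOS. It was thus higher with AOS in both settings, with no overlap between libraries. The sum of 18 Sertoli cell genes was 1060 to 1150 RPKM in control, 1075 to 1152 in AOS, 1183 to 1199 in HFD_STZ and 1194 to 1337 in HFD_STZ_AOS. Defining genes of the testis were thus present in each of these libraries. Of 11 tested round spermatid genes, 7 were higher in AOS than in control (median 0.01) and 11 higher in HFD_STZ_AOS than in HFD_STZ (median 0.08), with 0 past the test.

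Between AOS and control and between HFD_STZ_AOS and HFD_STZ, the median differences of epididymal and adipose markers had the signs of the members. Of 6 tested epididymal genes, 5 were lower in AOS than in control (median -0.99) and 6 higher in HFD_STZ_AOS than in HFD_STZ (median 0.99). Of 9 tested adipose genes, 7 were lower in AOS than in control (median -0.18) and 8 higher in HFD_STZ_AOS than in HFD_STZ (median 0.38). In both lists 0 genes passed limma's test. The summed epididymal markers were 12.1 to 221.9 RPKM in control, 8.68 to 12.8 in AOS, 8.65 to 14.8 in HFD_STZ and 14.1 to 218.5 in HFD_STZ_AOS, and the highest control and HFD_STZ_AOS values were those of replicate 3. The summed adipose markers were 21.8 to 45.9 RPKM in control, 20.9 to 51.1 in AOS, 19.7 to 34.8 in HFD_STZ and 24.2 to 165.9 in HFD_STZ_AOS. In the transfer groups, the epididymal sums were 28.8 to 231.4 RPKM in HFD_STZ_AOS_FMT and 14.55 to 164.0 RPKM in HFD_STZ_control_FMT. The adipose sums were 75.6 to 209.0 RPKM in HFD_STZ_AOS_FMT and 62.7 to 214.1 RPKM in HFD_STZ_control_FMT. The sum of 11 endothelium and blood genes was 110.4 to 150.8 RPKM in control and 75.5 to 108.6 in AOS, without overlap, and 163.0 to 222.6 in HFD_STZ and 118.3 to 187.3 in HFD_STZ_AOS. Of 10 such genes tested, 9 were lower in AOS than in control, 7 lower in HFD_STZ_AOS than in HFD_STZ and 9 higher in HFD_STZ than in control, with 0 past the test. The part of these cell types in the members' differences was not tested.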

How the data were processed

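RNA of 18 mouse testis libraries was sequenced. Per the labels' protocols, frozen testes gave total RNA by Trizol and then a column kit. Bowtie 0.12.2 and the build mm10 are named, per the submitters' processing notes. The use of strand, the annotation and the tool for counting are not given in the sources used here. Per gene symbol, RPKM values were deposited by the authors in 1 table, without saying whether reads or fragments were counted.

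The table held 20985 rows. The 6 rows that share 3 symbols were left out. A minimum of 1 RPKM, reached in 3 or more libraries, left 13874 genes. Their log2(RPKM + 1) values entered limma 3.58.1 (R 4.3.3), with 6 group coefficients, a trended prior, 12 residual and 3.71 prior degrees of freedom, two-sided tests and Benjamini-Hochberg adjustment within a comparison at 0.05. limma was used because the table holds RPKM, not counts. The fit was tested on simulated data. Depth was estimated approximately, from steps of low values within a fixed window.

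The members and lists were chosen with earlier results of these data known. Named genes were the 4 members, their 13 partners, the 2 genes of smallest p in each of 5 lists without calls, the 3 most like genes, genome neighbours and the next 3 genes by the rule. Alternatives were median-ratio scaling, no filter, pseudocount 0.1, fits on fewer groups, a replicate block, robust priors and leaving out each library. Removing the length trend (span 0.3) and leaving out 4 libraries high in Crisp1 were chosen after seeing the data.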

Additional observations from a re-analysis of the deposited data

Results flagged for a closer look

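For Hddc3, every AOS library was below every control library while every HFD_STZ_AOS library was above every HFD_STZ library, and the log2 differences of the 2 pairs were 0.63 apart. Vamp8 showed the same, 0.62 apart. Over all tested genes, limma called 0 for the difference between the pairs at an adjusted p under 0.05. No test of it is read for these genes, since they were chosen by it. The same pattern without overlap was present in 35 genes (0.252%) of those tested.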

How the results depend on the processing

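The members' differences in the transfer comparison kept their side of the threshold under all 14 alternatives, with limma adjusted p of 0.760 to 1 for Hddc3, 0.916 to 1 for Vamp8, 0.861 to 1 for Adi1 and 0.986 to 1 for AI467606. Causes of the changes below were not tested. With no filter, limma called 1 gene for HFD_STZ_AOS against HFD_STZ (0 in the report), 11 for HFD_STZ_AOS_FMT against HFD_STZ_control_FMT (3), 16 for HFD_STZ_AOS_FMT against HFD_STZ (2) and 4 for HFD_STZ_control_FMT against HFD_STZ (1). Pseudocount 0.1 gave 4 for HFD_STZ_AOS_FMT against HFD_STZ, and interactions of 0.96 for Adi1 and 0.75 for AI467606. Fits on only the groups compared gave 6, 1 and 0 for the last 3 comparisons. Without the 4 libraries high in Crisp1, HFD_STZ_AOS against HFD_STZ gave 2 genes, with 0.17 for Hddc3 and 0.025 for Adi1, and the interaction of Adi1 was 0.57. No label ties a replicate number to a shared animal or batch. The r of deviations was -0.246 to 0.411 over 45 same-numbered pairs (median 0.0005, against -0.014 over 90 others), so the numbers were not taken to pair the libraries, although 11 of 18 libraries correlated best with their own number. The replicate block gave 2 genes for HFD_STZ_control_FMT against HFD_STZ.

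Leaving out 1 library gave 0 to 3 genes for AOS against control (3 without AOS replicate 2), 2 to 5 for HFD_STZ_AOS_FMT against HFD_STZ (5 without HFD_STZ_AOS_FMT replicate 2, 4 without HFD_STZ replicate 2), 2 to 5 for HFD_STZ_AOS_FMT against HFD_STZ_control_FMT (5 without HFD_STZ_AOS_FMT replicate 2) and 1 to 14 for HFD_STZ_control_FMT against HFD_STZ (14 without HFD_STZ_control_FMT replicate 3). HFD_STZ_AOS minus HFD_STZ ranged from 0.17 to 0.37 for Hddc3 and 0.025 to 0.27 for Adi1, and the interaction from 0.51 to 0.71 for Hddc3 and 0.64 to 0.90 for Adi1, lowest without HFD_STZ_AOS replicate 3. AOS minus control ranged from -0.33 to -0.17 for Vamp8. In the transfer comparison the ranges were -0.080 to -0.0059 for Vamp8, -0.183 to -0.091 for Adi1 and -0.100 to -0.0047 for AI467606. Near-zero differences changed sign, and ranged from -0.066 to 0.017 (Hddc3) and -0.091 to 0.031 (Vamp8) for HFD_STZ_AOS_FMT minus HFD_STZ, -0.017 to 0.136 (Vamp8) for HFD_STZ minus control and -0.042 to 0.080 (Vamp8) for HFD_STZ_control_FMT minus HFD_STZ. HFD_STZ_AOS_FMT minus HFD_STZ for Hddc3 was 0.0082 with median-ratio scaling, 0.017 without HFD_STZ replicate 2, and 0.0037 and 0.011 without HFD_STZ_AOS_FMT replicates 1 and 2; for Vamp8 it was 0.031 without HFD_STZ replicate 3. HFD_STZ minus control for Vamp8 was -0.0093 without control replicate 2 and -0.017 without HFD_STZ replicate 3. HFD_STZ_control_FMT minus HFD_STZ for Vamp8 was -0.042 without HFD_STZ replicate 1 and -0.025 without HFD_STZ_control_FMT replicate 1. At about 57 to 296 reads of a member per library, counting error limits the differences that can be seen.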
